A study of Nothobranchius furzeri with 6 samples.

Results

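Ribosome occupancy in the liver of the African turquoise killifish (Nothobranchius furzeri) was compared between old fish at 39 weeks post-hatching and adult fish at 12 weeks, the later part of the life span covered by the study. Occupancy is the number of ribosome-protected mRNA fragments (footprints) on a coding sequence, summed from the start codon to the stop codon. The comparison used 4 of the 6 libraries of the series, 2 old and 2 adult, and the remaining 2 libraries came from young fish at 5 weeks. Fish were of the strain MZM-0410, no treatment is named for them, and the ages in weeks are those the study gives for its age groups. Each library was a pool of livers, between 5 and 10 fish according to the labels and between 2 and 10 according to the methods, which also state equal numbers of males and females. The livers were lysed frozen, and the lysis buffer held cycloheximide, which arrests elongating ribosomes. Of 22757 coding sequences in the reference, 15557 passed the filter on low counts and were tested. The transcript identifiers came without gene names and 0 of them matched the RefSeq gene table at hand, so transcripts are described by the protein that their codons encode: its length, its composition and short sequence signatures. For the same reason liver and other cell type markers could not be looked up by symbol, and the labelled tissue was not checked against them. Pools of whole liver hold several cell types, and fewer cells of a type and less RNA per cell cannot be told apart in them.

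The liver makes most plasma proteins, among them carriers, protease inhibitors, clotting factors and complement, and in egg-laying females also yolk precursors and egg envelope proteins. Most secreted proteins and a part of the membrane proteins start with a hydrophobic stretch that directs the ribosome to the endoplasmic reticulum. Enzymes such as cytochromes P450, short-chain dehydrogenases and acyl-CoA synthetases handle steroids, fatty acids and foreign compounds in hepatocytes. In aging vertebrate tissues, proteins of immune cells and of the extracellular matrix are often found to increase. Ribosome profiling reads the ribosomes on each mRNA, so a change of occupancy includes any change of the mRNA itself.

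The adult libraries held 39692061 and 38192972 footprints on coding sequences and the old libraries 39031406 and 22580854. The 10 most abundant transcripts took 40.2% and 62.3% of the footprints in adult replicates 1 and 2, and 40.4% and 25.2% in old replicates 1 and 2. Values are therefore given as CPM, counts divided by a library size that TMM scaling sets on the bulk of transcripts. The scaling factors ran from 0.586 in adult replicate 2 to 1.66 in old replicate 2, and on library totals alone the median transcript was 0.83 higher in old on the log2 scale.

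In old liver, 368 transcripts rose and 226 fell against adult liver (edgeR quasi-likelihood test, Benjamini-Hochberg adjusted p under 0.05). The rises were 2.37% and the falls 1.45% of the transcripts tested, 3.82% together, and their adjusted p ran from 0.019 to 0.05. The risen transcripts had a median log2 fold change of 2.44, and 115 of them were above 3. The fallen transcripts had a median of -1.70, and 34 of them were below -3. The risen transcripts were scarcer in adult liver, with a median adult level of 1.37 CPM and old level of 6.84 CPM, and the fallen ones went from 16.6 to 4.86 CPM. Adult and old levels are both part of the contrast. In the young libraries, which are not, the medians were 1.65 CPM for the rises and 12.7 CPM for the falls. All 368 rises and all 226 falls held in each of the 4 pairs of an old with an adult library. Calls were selected on the difference between these same 4 libraries, so this count follows largely from the selection and is no separate support. Of all tested transcripts, 28.1% were higher and 26.7% lower in old in all 4 pairs, shares that do not allow for the selection.

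**Figure D1:**
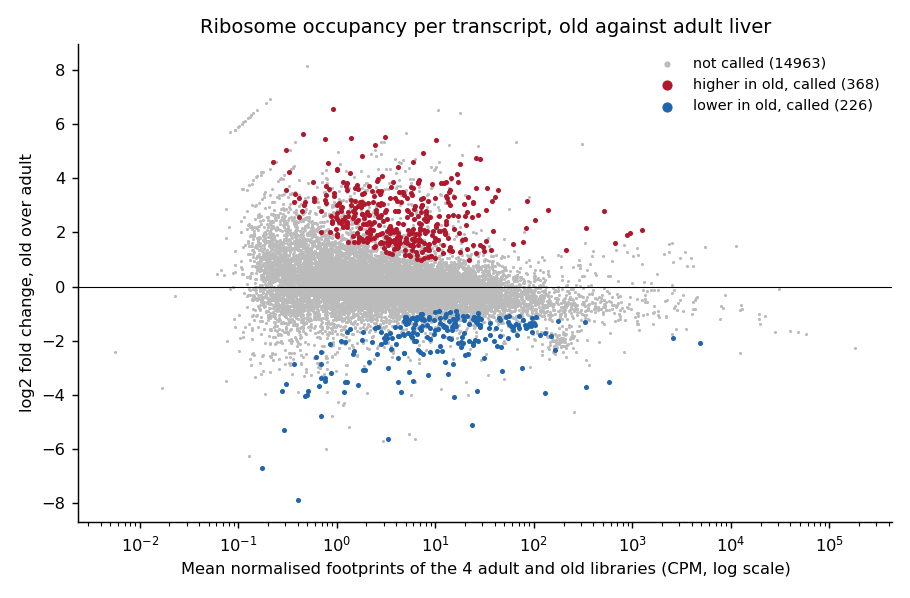
Each point is 1 of 15557 transcripts, with the mean of the 4 adult and old libraries (CPM, log scale) on the x axis and the log2 fold change of old over adult on the y axis. Red points are the 368 transcripts called higher and blue points the 226 called lower in old, and the red points lie mostly at lower CPM than the blue ones.

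The calls came from a fit in which the 3 ages share 1 estimate of the spread. The old and adult libraries alone gave 0 calls in edgeR, with 3284 transcripts at an unadjusted p under 0.05, although 593 of the 594 called transcripts kept their direction. DESeq2 on the 6 libraries called 1946 transcripts, including all 594. The balance of directions turned without an adult library: 30 transcripts were called higher and 164 lower without adult replicate 1, and 3 and 10 without adult replicate 2. Without old replicate 1 the calls were 686 and 240, without old replicate 2 61 and 27, and without young replicate 1 or 2 0 each, with 3343 and 3344 at an unadjusted p under 0.05. With library totals in place of TMM, 94.9% of the calls were higher in old against 62.0% with TMM.

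The old libraries did not rise equally. Among the 368 risen transcripts 277 (75.3%) were higher in old replicate 2 than in old replicate 1, against 51.6% of all tested transcripts, and the median log2 ratio of the replicates was 0.53. Among the fallen transcripts 45.6% were higher in old replicate 2. Old replicate 2 was also the shallowest library and the one with the lowest share on the 10 most abundant transcripts, and their part in the rises was not tested.

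A short coding stretch identifies the signature on which several of the changes below are described. The first lines show the transcript with the largest rise among called transcripts of at least 5 CPM, with the codons of a histidine and an aspartate of a tyrosinase-type copper site in capitals, and the next rise, with the 4 cysteine codons of a granulin module in capitals. The third line shows 12 Gly-X-Y triplets of a collagen-like transcript, the second largest fall above that level, and the fourth those of a collagen-like transcript that rose, with the glycine codons in capitals. All are coding strand, 5′ to 3′, read from the deposited codons.
Nfu_t_1_032696, codons 387 to 398 of 520: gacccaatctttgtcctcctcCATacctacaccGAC
Nfu_t_1_032021, codons 54 to 67 of 260: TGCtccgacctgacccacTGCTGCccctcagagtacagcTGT
Nfu_t_1_053864, codons 13 to 48 of 467: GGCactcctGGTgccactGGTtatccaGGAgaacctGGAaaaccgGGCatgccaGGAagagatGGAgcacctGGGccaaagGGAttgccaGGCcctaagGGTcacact
collagen-like transcript, codons 488 to 523 of 1864: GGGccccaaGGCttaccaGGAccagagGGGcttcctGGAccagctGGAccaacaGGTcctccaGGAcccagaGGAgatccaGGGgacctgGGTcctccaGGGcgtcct

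Fold changes were ranked among called transcripts with a mean of at least 5 CPM over the adult and old libraries. The largest rise among them belonged to a 520-codon transcript, Nfu_t_1_032696, with both copper-site patterns of the tyrosinase family, proteins of melanin synthesis. Which member of the family it encodes was not determined. The transcript stood at 0.316 and 0.671 CPM in the adult libraries and at 15.3 and 24.3 CPM in the old ones. The log2 fold change was 5.41 ± 0.43 (SE, n = 2 libraries an age, adjusted p = 0.019 in edgeR). Both old libraries lay far above both adult ones, and the young libraries, at 0.506 and 0.681 CPM, lay with the adult ones. It was the only tested transcript with either copper site. The next rise, Nfu_t_1_032021, encodes 260 residues of which 10.8% are cysteine, with a granulin module, a cysteine-rich fold of secreted growth factors. It went from 0.429 and 0.537 CPM in adult to 3.47 and 25.6 CPM in old (log2 fold change 4.92 ± 0.98, adjusted p = 0.0472). The old libraries were both above the adult ones, but old replicate 2 carried most of this rise. These and the other signatures outside the listed ones were looked up after the changed transcripts were known.

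The remaining 8 of the 10 largest rises ran from a log2 fold change of 4.77 down to 3.86. A 565-codon transcript with an N-terminal hydrophobic stretch and 4 later membrane stretches went from 1.94 and 1.65 CPM to 13.5 and 85.3 CPM. A 619-codon transcript with 1 membrane stretch went from 0.542 and 3.8 CPM to 37.7 and 71.3 CPM. A 417-codon transcript with an intermediate filament signature, the cytoskeletal filament family of keratins and vimentin, went from 2.30 and 1.16 CPM to 13.4 and 50.3 CPM. In each of these the old and adult libraries did not overlap and old replicate 2 was the highest. A 191-codon transcript and a 316-codon transcript ran the other way, at 19.5 and 43.3 CPM in old replicate 1 and 3.18 and 10.8 CPM in old replicate 2. In the 191-codon transcript the young libraries, at 5.74 and 5.15 CPM, were above old replicate 2, and so was young replicate 2, at 14.9 CPM, in the 316-codon transcript.

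**Figure D2:**
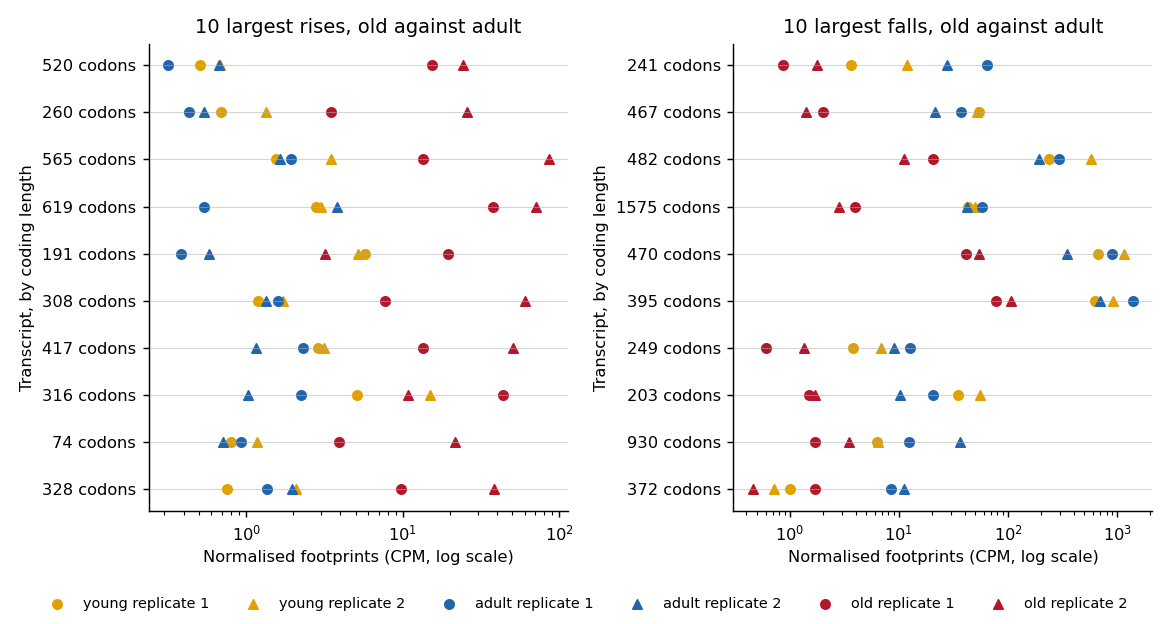
Normalised footprints (CPM, log scale) of the 10 largest rises and the 10 largest falls among called transcripts with a mean of at least 5 CPM, named by coding length, with 1 point per library. Old points lie to the right of all adult points in the rises and to the left in the falls, and the gap between the old replicates is wider in most of the rises.

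The rises that moved most footprints were different transcripts, and all 10 encoded an N-terminal hydrophobic stretch. The largest was a 245-codon trypsin-like serine protease, a family of digestive enzymes, clotting factors and complement proteases. It stood at 363.5 and 583.4 CPM in the adult libraries and at 2503 and 1573 CPM in the old ones (log2 fold change 2.11 ± 0.38, adjusted p = 0.0408). A second 245-codon member went from 77.9 and 166.6 CPM to 689.1 and 407.9 CPM, and a 246-codon member from 278.1 and 389.4 CPM to 1100.1 and 925.3 CPM. In these 3 proteases both old libraries were above all adult and young libraries, and old replicate 1 was the higher of the pair. A 149-codon transcript with the histidine site of secreted phospholipases A2, which release fatty acids from phospholipids, went from 300.1 and 470.9 CPM to 1681 and 1322 CPM. A 127-codon transcript with no listed signature went from 128.4 and 133.0 CPM to 1106 and 694.8 CPM (log2 fold change 2.78 ± 0.33, adjusted p = 0.0289). The phospholipase and the 127-codon transcript were again higher in old replicate 1 than in old replicate 2. The other 5 were a 623-codon, a 151-codon, a 514-codon, a 106-codon and a 752-codon transcript, with log2 fold changes between 1.34 and 3.16. Both 245-codon transcripts, and the 242-codon ones below, shared every 25-base word with others of the reference. Unique alignment leaves out footprints that match several copies equally well, so the single values of these transcripts are uncertain. The same holds for the 127-codon transcript, which shared 95.6% of its 25-base words.

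The site around the catalytic serine showed how close these proteases are. The 6 called members are printed with the serine codon in capitals, ordered by fold change, the last of them the only member that fell.
245 codons, log2 fold change 2.17: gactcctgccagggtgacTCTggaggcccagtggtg
242 codons, log2 fold change 2.11: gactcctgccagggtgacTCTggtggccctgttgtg
245 codons, log2 fold change 2.11: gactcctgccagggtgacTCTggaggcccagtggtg
246 codons, log2 fold change 1.6: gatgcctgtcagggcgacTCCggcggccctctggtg
242 codons, log2 fold change 1.56: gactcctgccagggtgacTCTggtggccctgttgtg
810 codons, log2 fold change -1.10: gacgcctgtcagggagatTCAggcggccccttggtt
Both 245-codon members were identical over these 36 bases, as were both 242-codon members, and the pairs differed from each other at 3 bases. The 246-codon member differed from all of the other risen members at 8 bases. The fallen 810-codon member, with 2 membrane stretches, differed from the risen members at 7 to 10 bases.

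The trypsin-like list as a whole had 44 tested members, of which 5 rose and 1 fell, with a median log2 fold change of 0.76 against 0.00 over all transcripts. The 5 rises include the 245-codon pair and the 242-codon pair, each identical over the site above, so they may stand for fewer distinct proteins. The list was divided by length, a division made after the values were seen. The 18 members of up to 300 codons had a median of 1.32, and 16 of them were higher in old in all 4 pairs, with 0 lower. The 26 longer members had a median of -0.57, with 6 higher and 16 lower in all 4 pairs. Over all tested transcripts, 28.1% were higher and 26.7% lower in all 4 pairs. The summed level of the short members was 12088 and 16231 CPM in adult, 39959 and 29071 CPM in old, and 20282 and 17896 CPM in young. That of the long members was 15650 and 18734 CPM in adult and 11041 and 10266 CPM in old. The 2 ages did not overlap in either sum, and single long members ran from -1.76 to 2.28 on the log2 scale.

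Among the falls above 5 CPM, the largest was that of Nfu_t_1_039808, a 241-codon transcript with 1 membrane stretch and no listed signature. It stood at 64.6 and 27.3 CPM in adult and at 0.866 and 1.79 CPM in old (log2 fold change -5.13 ± 0.75, adjusted p = 0.0335). The young libraries, at 3.65 and 11.9 CPM, lay between them. The second was Nfu_t_1_053864, whose 467 residues are 24.4% glycine and 17.8% proline and hold collagen-like triplets with a C1q domain, a fold of complement and related secreted proteins. It went from 37.0 and 21.6 CPM to 2.00 and 1.42 CPM (log2 fold change -4.09 ± 0.35, adjusted p = 0.019), and the young libraries were higher still, at 54.4 and 52.2 CPM. The old libraries were below the adult and young ones in both transcripts.

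The next falls included abundant transcripts. A 482-codon transcript with the C-terminal domain of fibrinogens, proteins of clotting and related secreted proteins, went from 295.0 and 190.8 CPM to 20.4 and 11.1 CPM (log2 fold change -3.94 ± 0.56). A 470-codon transcript with the active-site histidine of phosphoglycerate mutases, a family that also holds the sugar bisphosphate switch enzymes of glycolysis, went from 903.9 and 344.3 CPM to 40.9 and 53.7 CPM (-3.72 ± 0.55). A 395-codon transcript with no listed signature went from 1409 and 702.7 CPM to 77.0 and 106.2 CPM (-3.53 ± 0.45). In CPM the adult libraries differed by more than the old ones in each of these 3 transcripts, and the ages did not overlap. A 1575-codon transcript, rich in serine at 10.8%, went from 57.3 and 41.7 CPM to 3.99 and 2.84 CPM (-3.85 ± 0.30, adjusted p = 0.019). The other 4 of the 10 largest falls, of 249, 203, 930 and 372 codons, had log2 fold changes between -3.49 and -3.14.

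By the number of footprints, the largest fall was a 366-codon transcript with an N-terminal hydrophobic stretch. It went from 7421 and 8175 CPM in adult to 2111 and 1593 CPM in old (log2 fold change -2.07 ± 0.34, adjusted p = 0.0369), and the young libraries were intermediate at 3372 and 3789 CPM. A 251-codon transcript without such a stretch went from 4866 and 3334 CPM to 940.0 and 1260 CPM (-1.9 ± 0.36), with 3586 and 4424 CPM in young. Both stood apart from the rest of the falls in abundance and neither held a listed signature. The others of the 10 were the 3 abundant transcripts above and transcripts of 96, 255, 69, 354 and 230 codons, with log2 fold changes between -2.34 and -1.28. The most abundant transcripts of the libraries were not among the calls. The first of them, with 1699 codons and 11.4% serine, took 10.8% and 30% of the footprints in adult and 12.9% and 5.27% in old. With TMM scaling its log2 fold change was -2.26 ± 0.92, lower in old in all 4 pairs, with an adjusted p of 0.177. Ranks 2 to 10 had log2 fold changes between -1.75 and -0.11 and adjusted p between 0.0986 and 0.89. With 2 libraries an age, the lack of a call does not show that these transcripts were unchanged.

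Proteins with known signatures were then counted over 32 lists, 31 of which had tested members. The zona pellucida pattern matched only 1 coding sequence of the whole reference and 0 tested transcripts, so egg envelope proteins were not assessed by it. A listed signature was found in 12.5% of tested transcripts, in 58 of the 368 rises (15.8%) and in 32 of the 226 falls (14.2%). In each list the counts stand beside the background of 2.37% called higher and 1.45% called lower. Of the 15557 tested transcripts, 4034 had an unadjusted p under 0.05 in edgeR, and DESeq2 called 1019 higher and 927 lower. In all 4 pairs, 28.1% of tested transcripts were higher and 26.7% lower. Under 1.05 CPM these shares were 37.0% and 13.4%, and at or above 10 CPM 16.8% and 43.4%. Over the alternatives run, the medians relative to all transcripts ran from 1.07 to 2.3 for C-type lectins, from 0.5 to 0.95 for rhodopsin-like receptors, from 0.34 to 1.06 for collagen-like transcripts and from 0.42 to 0.91 for trypsin-like proteases.

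Among lectins and immune receptors, C-type lectins, sugar-binding proteins of the cell surface and of plasma, had the highest median of all lists with at least 10 members. Of 33 tested, 3 rose and 0 fell, and the median log2 fold change was 1.3. In all 4 pairs 19 (57.6%) were higher and 4 (12.1%) lower, against 28.1% and 26.7% of all tested transcripts. With TMM scaling the summed level of the list did not follow its median. It stood at 679.9 and 901.4 CPM in adult and at 625.2 and 662.5 CPM in old, and 1 member held 43.4% of it. Without TMM scaling the sum was higher in old in all 4 pairs. A 1100-codon member with 1 membrane stretch went from 8.09 and 6.89 CPM to 40.2 and 53.3 CPM (log2 fold change 2.64 ± 0.28, adjusted p = 0.0281). A 263-codon member went from 1.83 and 2.41 CPM to 9.95 and 18.3 CPM. Young libraries were at or near the adult level in both. Proteins with the immunoglobulin and MHC signature, the fold of antibodies and antigen receptors, had 3 rises and 0 falls of 42, and a median of 0.13. With TMM scaling their summed level was lower in old in all 4 pairs. It stood at 2122.8 and 1910.6 CPM in adult and at 1232.5 and 1764.5 CPM in old, with 55.3% on 1 member. Without TMM scaling the sum was higher in old in 3 of the 4 pairs. Once the 10 most abundant transcripts were also left out, it was higher in 1 of the 4, and that of C-type lectins in all 4. The 1310-codon member went from 0.723 and 0.939 CPM to 3.86 and 17.1 CPM, and the 190-codon member from 0.339 and 0.537 CPM to 2.20 and 6.56 CPM. Both were highest in old replicate 2, and the 190-codon member held only 15 and 12 footprints in the adult libraries.

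Rhodopsin-like receptors, the family of G protein-coupled receptors for hormones and chemokines, changed in both directions. Of 101 tested, 11 rose and 5 fell, with a median of 0.82. In all 4 pairs 50 (49.5%) were higher and 17 (16.8%) lower, against 28.1% and 26.7% of all tested transcripts. Among all transcripts under 1.05 CPM these shares were 37.0% and 13.4%. A 350-codon receptor went from 0.226 and 0.447 CPM to 3.05 and 6.61 CPM (log2 fold change 3.91 ± 0.54, adjusted p = 0.0332). That fold rests on 10 footprints in each adult library. A 367-codon receptor went from 0.949 and 0.894 CPM to 4.01 and 5.86 CPM. A further call, of 352 codons, rested on 1 footprint in each adult library against 78 and 55 in the old ones, so no fold is given for it. A 433-codon receptor fell from 17.5 and 20.6 CPM to 6.37 and 7.2 CPM (-1.49 ± 0.21), and a 383-codon receptor from 2.26 and 0.894 CPM to 0.188 and 0.161 CPM. The 383-codon receptor held only 10 and 6 footprints in the old libraries. In young liver the 350-codon receptor stood at 0.469 and 0.592 CPM, above both adult libraries and below both old ones.

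Tyrosine kinases, receptors and relays of growth and immune signals, had 7 rises and 0 falls of 91, with a median of 0.25, and DESeq2 called 16 higher and 4 lower. A 1010-codon member with an N-terminal stretch went from 2.73 and 1.88 CPM to 14.6 and 32.6 CPM (log2 fold change 3.33 ± 0.43, adjusted p = 0.0312). A 1464-codon member that also carries the immunoglobulin signature went from 7.66 and 9.70 CPM to 34.3 and 22.9 CPM (1.72 ± 0.26). Of 69 small GTPases, the switches of membrane traffic and cytoskeleton, 2 rose and 0 fell, a share near the background, and DESeq2 called 4 higher and 2 lower. One of these, with 192 codons, went from 3.50 and 2.73 CPM to 15.0 and 35.1 CPM. Serine/threonine kinases gave 3 rises and 3 falls of 293 and a median of 0.09, which is below the background of calls. A 303-codon kinase among the falls stood at 1.48 CPM in both young libraries, at 15.7 and 24.0 CPM in adult and at 7.06 and 5.86 CPM in old, so that the old level lay between the young and the adult one.

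Collagen-like triplets mark proteins of the extracellular matrix and some secreted proteins. Of 65 collagen-like transcripts 8 rose and 3 fell, with a median of 0.78. In all 4 pairs 36 (55.4%) were higher and 5 (7.69%) lower, against 28.1% and 26.7% of all tested transcripts. The summed level with TMM scaling, at 941.3 and 785.4 CPM in adult and 932.8 and 700.9 CPM in old, was not higher. Without TMM scaling it was higher in old in all 4 pairs, and in 3 of the 4 once the 10 most abundant transcripts were also left out. The 1864-codon member shown above, 21.9% glycine, went from 0.407 and 0.402 CPM to 2.32 and 3.02 CPM (log2 fold change 2.71 ± 0.45, adjusted p = 0.0373). That fold rests on 18 and 9 footprints in the adult libraries. A 243-codon member went from 2.64 and 1.70 CPM to 8.76 and 19.2 CPM. Long and short collagen-like proteins both occurred among the rises, from 243 to 3122 codons. A C1q domain was found in 3 of the 8 rises and in 2 of the 3 falls. The falls were the 467-codon transcript with a C1q domain, a second transcript with a C1q domain of 651 codons, from 8.90 and 7.42 CPM to 2.05 and 0.910 CPM, and a 1584-codon transcript, from 2.98 and 1.74 CPM to 0.283 and 0.107 CPM. The 1584-codon transcript held only 15 and 4 footprints in the old libraries. Of 87 transcripts with EGF-like modules, which build receptors, matrix and clotting factors, 7 rose and 1 fell. With TMM scaling their summed level was lower in old in all 4 pairs. It stood at 4321 and 5201 CPM in adult and at 3888 and 2985 CPM in old, with 64.6% on 1 member. Without TMM scaling the sum was higher in old in all 4 pairs. With the 10 most abundant transcripts also left out, it was higher in 2 of the 4. A rise of 4566 codons stood at 9.58 and 8.54 CPM in adult and at 31.5 and 30.5 CPM in old (1.77 ± 0.19, adjusted p = 0.0281). The fall, a 477-codon secreted-type protein, went from 61.9 and 60.4 CPM to 21.3 and 21.6 CPM.

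Several lists of enzymes and carriers of hepatic metabolism had medians below 0 and few calls. Of 35 cytochromes P450, 2 rose and 1 fell, with a median of -0.52, and 15 were lower and 9 higher in all 4 pairs. Of these P450s 6 were higher and 11 lower at an unadjusted p under 0.05, and DESeq2 called 2 higher and 9 lower. Over all 15557 tested transcripts, 4034 were under that unadjusted p, and DESeq2 called 1019 higher and 927 lower. The summed level of the P450s with TMM scaling was 6417 and 5599 CPM in adult and 3462 and 3439 CPM in old, lower in all 4 pairs. Of 35 short-chain dehydrogenases, 0 were called in edgeR, the median was -0.47, and 23 were lower and 3 higher in all 4 pairs. Of 10 lipocalins, carriers of small hydrophobic molecules, 0 were called, the median was -0.88, and 7 were lower and 0 higher in all 4 pairs. The share lower in all 4 pairs was 42.9% of P450s, 65.7% of short-chain dehydrogenases and 70.0% of lipocalins, against 26.7% of all tested transcripts. That share depends on abundance, and it was 43.4% of all tested transcripts at or above 10 CPM. The lists were not compared with transcripts of matched abundance. At an unadjusted p under 0.05, 11 short-chain dehydrogenases were lower and 2 higher, and DESeq2 called 5 lower and 1 higher. Of the lipocalins 7 were lower and 0 higher at an unadjusted p under 0.05, and DESeq2 called 6 lower. Acyl-CoA synthetases had 0 calls of 22 and a median of -0.33, and serpins, plasma protease inhibitors, 0 of 13 and -0.30, and the serpin median relative to all transcripts ran from -0.44 to 0.03 over the alternatives. At an unadjusted p under 0.05, 3 acyl-CoA synthetases were higher and 5 lower, and 3 serpins higher and 2 lower. DESeq2 called 1 synthetase higher and 1 lower, and 0 serpins higher and 3 lower. Aldehyde dehydrogenases gave 1 rise of 14, in a 518-codon member that went from 16.4 and 13.9 CPM to 35.1 and 37.3 CPM.

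The heme-binding stretch of the 3 called cytochromes P450 is printed with the codon of the cysteine that holds the heme iron in capitals.
498 codons, log2 fold change 2.96: ttcggagtgggagtccgagccTGTgtgggg
536 codons, log2 fold change 2.32: ttctcctcaggccccaggaacTGCatcgga
514 codons, log2 fold change -1.94: ttctctgcaggtcctcggatgTGCctcgga
The risen members were scarce, from 0.271 and 0.224 CPM to 1.24 and 2.73 CPM in the 498-codon one and from 0.701 and 0.626 CPM to 2.69 and 4.01 CPM in the 536-codon one. In the adult libraries the 498-codon member held 12 and 5 footprints and the 536-codon member 31 and 14. The fallen 514-codon member was more abundant, from 60.3 and 39.8 CPM to 11.7 and 14.5 CPM (-1.94 ± 0.37, adjusted p = 0.0437). It shared 19.2% of its 25-base words with others of the reference, so unique alignment may leave out a part of its footprints. Among these 3 calls the scarce members rose and the abundant one fell.

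Both called ABC transporters of 45 fell, the 1510-codon one with 13 membrane stretches from 46.9 and 39.3 CPM to 13.3 and 8.43 CPM, and its young libraries stood higher at 101.4 and 108.1 CPM. Mitochondrial carriers, which move metabolites over the inner membrane, gave 1 rise and 2 falls of 29, the larger fall from 44.5 and 28.9 CPM to 3.97 and 9.26 CPM in a 285-codon member. Nuclear receptors, transcription factors that sense hormones and metabolites, gave 4 falls and 0 rises of 51. A 584-codon receptor went from 7.43 and 8.94 CPM to 1.07 and 1.9 CPM (log2 fold change -2.47 ± 0.32, adjusted p = 0.0312), and a 670-codon one from 67.4 and 54.5 CPM to 25.9 and 28.3 CPM. The old libraries were below the adult and young ones in both. One homeobox protein of 40 was called, a 571-codon transcript at 38.6 and 40.4 CPM in adult and 9.10 and 8.75 CPM in old (-2.15 ± 0.21, adjusted p = 0.0281), and the young libraries, at 8.99 and 11.3 CPM, were near the old level. Zinc finger proteins with 4 or more C2H2 fingers gave 2 rises and 2 falls of 467, both shares below the background.

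Lists of protein folding, turnover and RNA handling were largely without calls. Among 14 thioredoxin and disulfide isomerase proteins 1 rose, a 558-codon member with an ER retention ending, from 32.3 and 43.4 CPM to 142.5 and 93.5 CPM (log2 fold change 1.64 ± 0.30). Among 32 J-domain proteins, co-chaperones of Hsp70, 1 fell. Hsp70 proteins, AAA ATPases and DEAD-box RNA helicases had 0 calls of 6, 26 and 27, with medians of 0.22, 0.25 and 0.26 (the Hsp70 median relative to all transcripts ran from -0.18 to 0.47 over the alternatives), and 10 DEAD-box helicases were higher and 1 lower in all 4 pairs. At an unadjusted p under 0.05 these lists held 1, 5 and 4 transcripts, and DESeq2 called 0, 1 and 1. Ubiquitin-conjugating enzymes gave 2 falls of 30. The smaller of these enzymes, of 174 codons, stood at 1.41 and 1.63 CPM in young, at 10.3 and 13.9 CPM in adult and at 5.12 and 5.38 CPM in old. Transcripts matching the RNA recognition motif pattern gave 1 rise and 2 falls of 114 with a median of 0.06. The risen one also matched the pyridoxal decarboxylase pattern, and 1 of the fallen ones held 9 membrane stretches. Whether these proteins bind RNA is therefore uncertain.

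**Figure D3:**
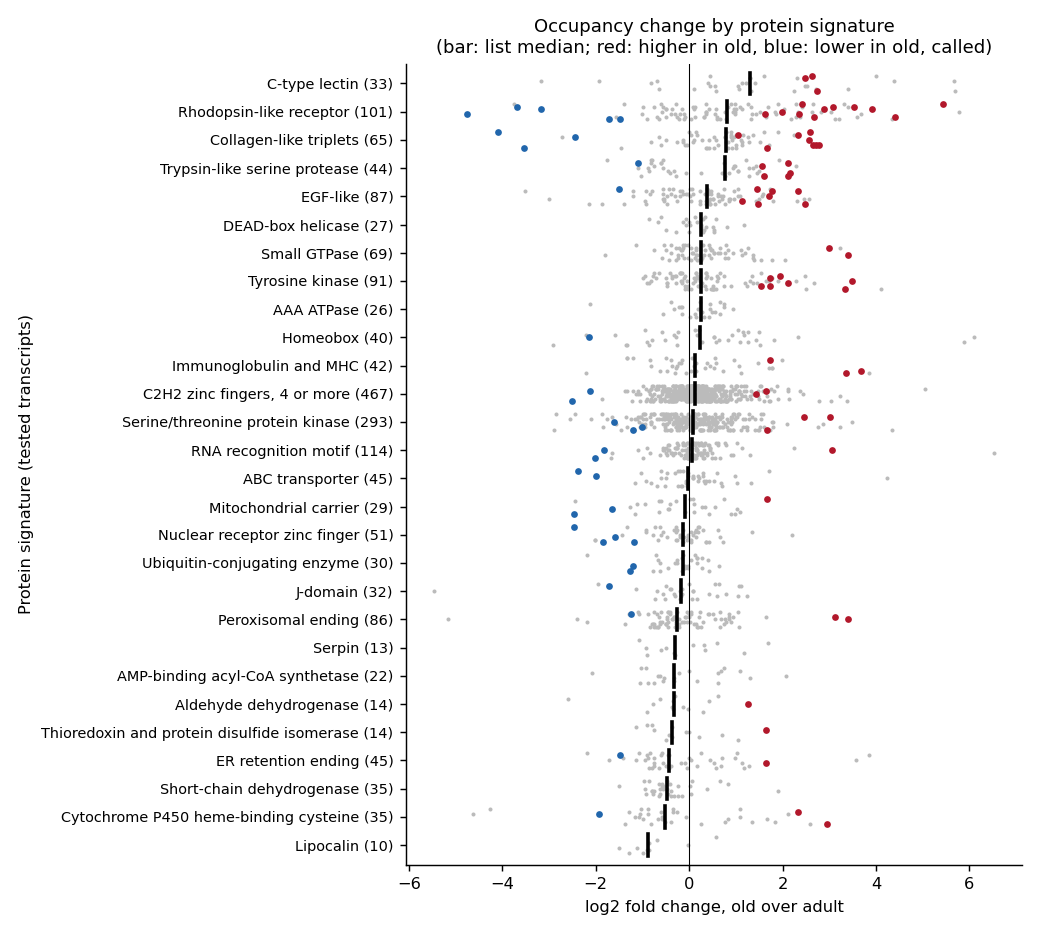
Log2 fold change of old over adult (x axis) for each tested transcript of the 28 signature lists with at least 10 members (y axis, number tested in brackets), with a bar at the list median. Red points are called higher and blue points called lower, and the medians run from -0.88 for lipocalins to 1.3 for C-type lectins.

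Features of the whole protein also differed between the risen transcripts and the rest. An N-terminal hydrophobic stretch (10 residues among the first 30 with a mean Kyte-Doolittle hydropathy of at least 2) was found in 37.0% of the risen, 22.6% of the fallen and 18.5% of all tested transcripts. A membrane stretch (19 residues after the first 40 with a mean of at least 1.6) was found in 42.9%, 34.1% and 28.3%. Of 1539 transcripts with an N-terminal stretch and no membrane stretch, the pattern of secreted proteins, 4.48% rose and 1.95% fell. Of 1337 with both stretches, 5.01% rose and 1.57% fell. Of 3064 with a membrane stretch alone, 2.97% rose and 1.83% fell. Of 9617 with neither, 1.47% rose and 1.24% fell. Between 10 and 100 CPM, 6.48% of the secreted pattern, 5.97% of those with both stretches and 1.18% of those with neither rose. Above 100 CPM the same shares were 4.0%, 1.89% and 0.0%. Falls in these classes were 4.32%, 3.77% and 2.57% between 10 and 100 CPM, and 2.0%, 0.0% and 2.32% above 100 CPM. With a membrane stretch alone, 1.56% rose and 3.84% fell between 10 and 100 CPM. Above 100 CPM 0.0% of that class rose and 4.3% fell. Proteins with 3 or more membrane stretches were 16.8% of the falls, 10.9% of the rises and 8.62% of all. Transcripts are not replicates, so these shares are descriptions.

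**Figure D4:**
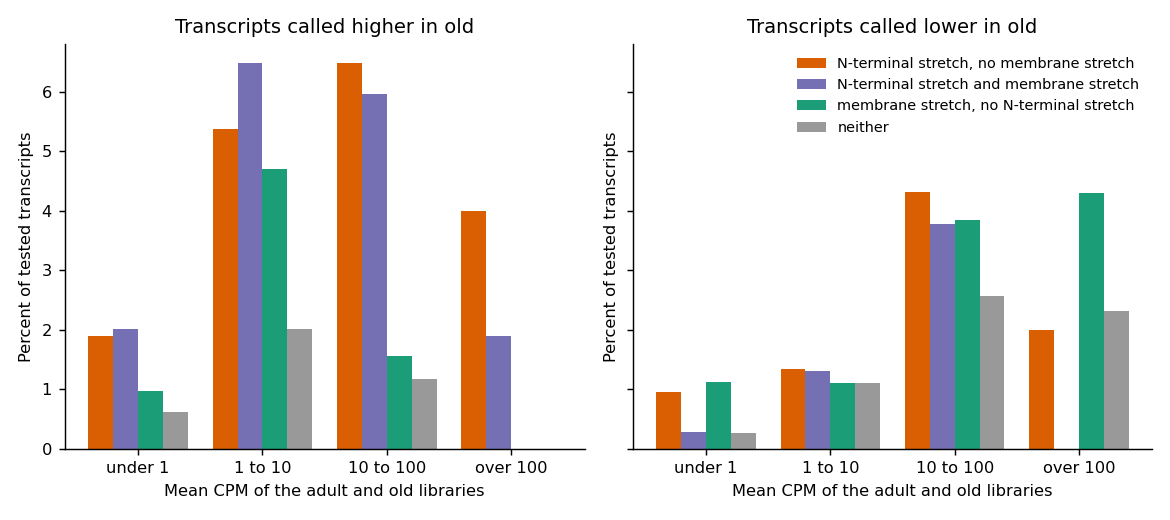
Percent of tested transcripts called higher (left) and lower (right) in old liver, by mean CPM of the adult and old libraries (x axis) and by the hydrophobic stretches of the encoded protein (colours). Between 1 and 100 CPM the classes with an N-terminal stretch have the highest percent called higher, 5.38% to 6.48%.

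Length and composition differed less. The median coding length was 475 codons in the risen, 382.5 in the fallen and 443 in all tested transcripts. Among transcripts of 727 codons and more 34.5% of transcripts were higher and 20.1% lower in all 4 pairs, and among those under 268 codons 22.6% were higher and 30.9% lower. Lysine plus arginine made up a median 10.8% of the risen, 10.7% of the fallen and 11.3% of all proteins. The percent called higher was 2.75% among proteins with under 9.58% of these residues and 1.65% among those with 13.2% or more, and the percent called lower 2.03% and 0.874%. Calls in both directions were thus less frequent among basic proteins. The share higher in old in all 4 pairs did not fall in the same way, at 26.7% and 27.3% in these classes. The share lower in all 4 pairs was 31.1% and 22.7%. A run of 5 acidic residues was found in 7.52% of the fallen, 12.8% of the risen and 14.6% of all proteins, and a run of 4 basic residues in 15.5%, 22% and 21.3%. Median cysteine was 2.21% in the risen, 2.04% in the fallen and 2.00% in all proteins. G or C at the third codon base was 60.8%, 63.9% and 61.5%. Direction also moved with abundance. At or above 10 CPM, the median log2 fold change was -0.26 and 43.4% were lower in all 4 pairs, and under 1.05 CPM it was 0.32, with 13.4% lower in all 4 pairs. These values rest on TMM scaling, and library totals moved the median up as given above.

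The share of all footprints on each kind of protein was compared as 1 value per library. Of 42 measures, 18 were higher and 2 lower in old in all 4 pairs, and none could pass the exact permutation test used, since the smallest two-sided p of an exact permutation test with 2 against 2 libraries is 0.333 (adjusted p = 0.7 over the 42). Shares are in CPM of the whole library, without TMM scaling. On library totals the median transcript was itself 0.83 higher in old on the log2 scale, so the 18 are read against that shift. The share of all transcripts higher in all 4 pairs on library totals is given in the last section. Trypsin-like proteases took 30926 and 20476 CPM in adult and 69371 and 65102 in old, a ratio of 2.62. Hsp70 proteins took 470.1 and 350.2 CPM in adult and 860.5 and 872.5 in old, and AAA ATPases 470.4 and 224.0 against 750.1 and 807.3. With the 10 most abundant transcripts left out, these 3 measures were still higher in old in all 4 pairs. So were those of C-type lectins, aldehyde dehydrogenases, small GTPases, tyrosine kinases and rhodopsin-like receptors. The same held for proteins with the RNA recognition motif, with 4 or more C2H2 fingers or with a peroxisomal targeting ending. With TMM scaling the sums of the trypsin-like proteases and the AAA ATPases were also higher in old in all 4 pairs, but those of Hsp70 overlapped, at 421.7 and 598.1 CPM in adult and 632.6 and 527.2 CPM in old. Cytochromes P450, at 7155 and 3280 CPM in adult and 4710 and 5693 in old, were higher in old in 2 of the 4 pairs, and with those 10 transcripts left out they were 11956 and 8710 against 7902 and 7614, lower in all 4. Lipocalins likewise went from 45284 and 41226 to 32655 and 28040 without those transcripts. Lysine plus arginine weighted by footprints was 10.4% ± 0.107 (SD, n = 2) in old and 10.6% ± 0.158 in adult liver, lower in all 4 pairs (exact p = 0.333).

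**Figure D5:**
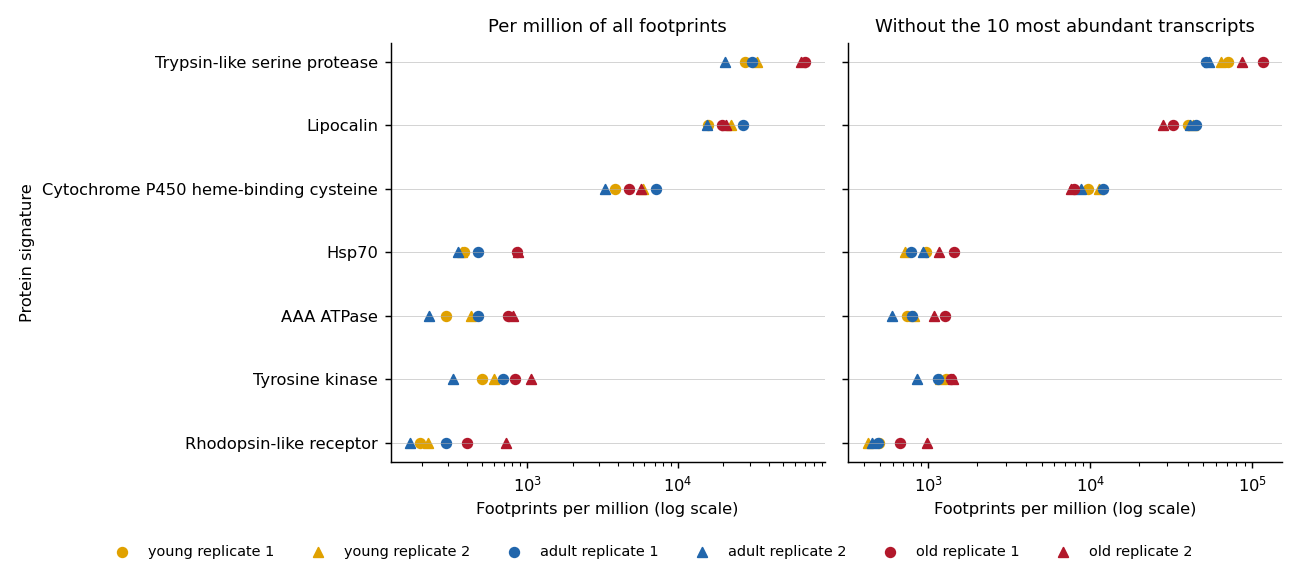
Footprints in CPM of the library without TMM scaling (log scale, x axis) on 7 signature lists in each of the 6 libraries, of all footprints (left) and with the 10 most abundant transcripts left out (right). Old libraries are the highest for trypsin-like proteases, Hsp70, AAA ATPases, tyrosine kinases and rhodopsin-like receptors in both panels. They are lowest for lipocalins and P450s only in the right panel.

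The young libraries are set beside both ages. Of the 368 transcripts that rose, 356 (96.7%) had both old libraries above both young libraries, against 33.7% of all tested transcripts. Of the 226 that fell, 200 (88.5%) had both old libraries below both young ones, against 29.3% of all. Levels also differed between young and adult for many of them: 50.5% of the rises were lower in both adult libraries than in both young ones (25.4% of all tested), and 40.7% of the falls were higher in adult than in young (25.1%). Since the adult libraries enter both differences, a low or high adult value contributes to each. The old libraries likewise enter both the calls and the comparison with young. Selection of the called transcripts therefore raises the 96.7% and the 88.5%, and the shares of all tested transcripts do not allow for it. Against young, the median log2 ratio of old was 1.6 for the rises and -1.26 for the falls.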

How the data were processed

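Per the labels and methods, the authors used CASAVA 1.8, trimmed adapters with cutadapt 1.4.2 and removed the 5′ nucleotide, discarded reads of ribosomal RNA, and used Bowtie 1.3.1 for alignment (unique best alignment, up to 2 mismatches) to the longest coding sequence of each gene with 21 flanking nucleotides. Footprints were placed with riboWaltz, and the deposited values are raw footprint counts per codon and library. Unique alignment leaves near-identical copies uncertain. No molecular identifiers were described, so PCR copies count separately.

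Counts were summed over each coding sequence and its codons were translated. edgeR 4.0.16 in R 4.3.3 (filterByExpr, TMM, glmQLFTest) was fitted to the 6 libraries with age as the factor, with the contrast old minus adult and Benjamini-Hochberg adjustment over 15557 transcripts. DESeq2 1.42.0 was an alternative. Libraries were not stated to share fish, and p-values measure the spread between pools.

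Signatures were matched as sequence patterns: 32 listed, 17 added after values were seen. Named transcripts were the 10 largest fold changes in each direction (called, all 4 pairs, at least 5 CPM), the 10 largest CPM differences, and up to 3 called members per list and direction. Members and lists were chosen with earlier results of these data known. Same-numbered libraries did not deviate together (correlations of -0.0951, 0.149 and -0.155), so replicate numbers were not used as pairs.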

Additional observations from a re-analysis of the deposited data

Results flagged for a closer look

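Footprints in the 21 nucleotides on either side of the coding sequence, which enter no comparison above, made up 0.116% and 0.0876% of the adult and 0.126% and 0.161% of the old libraries. The old mean was 0.0416 percentage points higher, and both old libraries were above both adult ones (p = 0.333 in a two-sided exact permutation test, which 2 against 2 libraries cannot go below).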

How the results depend on the processing

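Against 594 calls (368 higher, 226 lower), DESeq2 gave 1946 (1019 and 927), library totals 2118 (2011 and 107), no filter on low counts 1905 (1091 and 814), and the old and adult libraries alone 0 (0 and 0, with 3284 at an unadjusted p under 0.05). The replicate block gave 1 call (1 and 0), although the numbers do not pair the libraries. Crossing the adult numbers, chosen after seeing the data, gave 1070 calls (617 and 453) with the block. Leaving out 1 library gave 0 to 926 calls, 0 to 686 higher and 0 to 240 lower. The other 6 settings stayed within 1.5 times the main counts (499 to 654 calls). With library totals, 60% of transcripts were higher and 1.99% lower in all 4 pairs, against 28.1% and 26.7%. An N-terminal stretch was found in 37.0% of the rises, in 30.7% with library totals and in 32.1% to 59.0% without single libraries. It was found in 22.6% of the falls and in 14.8% to 22.9% without single libraries. Of the 99 named transcripts, 0 reversed under any setting, and 98 or 99 kept their call with RLE factors, DESeq2, no filter, or without the 10 most abundant transcripts. None kept it with the old and adult libraries alone or without young replicate 1 or 2, 1 did with the replicate block, 19 and 8 did without adult replicate 1 and 2, and 76 and 26 without old replicate 1 and 2. The cause of these differences was not tested. Depth limits the scarce transcripts, where single calls rest on a few footprints in the adult or the old libraries.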
